A study of Mus musculus with 10 samples.

Results

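Open chromatin was described at 35 imprinted genes of 18 clusters that lie outside the Snrpn, Igf2r and Kcnq1 clusters, in mouse neural stem cells with and without Smchd1, a chromatin protein that silences genes on the inactive X chromosome and at some imprinted loci. Accessibility came from ATAC-seq, in which the Tn5 transposase cuts open DNA and leaves sequencing adapters there. A peak belonged to a gene when its summit lay in the gene or within 5 kb of it. Peaks of the 4 deposited lists that overlapped by at least 1 bp were joined into loci, and 241 of 150516 loci belonged to the 35 genes.

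The deleted groups were Smchd1 del/del lines with 3 female and 2 male libraries, and the control groups were Smchd1 fl/fl lines with 3 female and 2 male libraries. All lines were neural stem cells of the C57BL/6 strain from E14.5 embryos with floxed Smchd1 alleles. For all 10 libraries the protocol gives the retrovirus MSCV-Cre-puro, puromycin from 24 h and harvest at 7 days after transduction. The labels do not say whether control cells were given any vector. The free-text description of the male libraries says female, while their titles and sex field say male, and the titles were followed. The libraries of a group were pooled before peak calling and each group was deposited as 1 list. The spread between lines of a group is therefore unknown, and differences are given without a test. In bulk cells, more cells with an open site cannot be told apart from wider opening in each cell, and in an inbred strain the parental alleles cannot be told apart.

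Imprinted genes are expressed mainly from the copy of 1 parent. The choice is set by DNA methylation laid down in egg or sperm at imprinting control regions, and it is kept in the embryo by factors such as ZFP57, which binds methylated copies of these regions. Several of the genes act in fetal growth (Igf2, Grb10, Plagl1), in metabolism (Gnas) or in neural development and function (Peg3, Ddc, Kcnk9), and many long noncoding RNAs (H19, Meg3, Nespas, Peg13) lie beside them.

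Promoters of 300 bases, from 250 before to 50 after an annotated start, were available in the RefSeq table of GRCm38.p6 for 25 of the 35 genes, with 38 starts in all. They are shown for 7 genes whose promoter held the 6 letters TGCCGC or the reverse complement GCGGCA, the core that ZFP57 binds when it is methylated. Zim1 had the strongest peak at any gene end. Nap1l5, Mest, Mcts2, Nnat and Plagl1 are paternally expressed genes with a peak on the promoter in all 4 lists, and Meg3 had none on this promoter in any list. Promoters of Copg2, Grb10, Commd1, Igf2 and Zdbf2 also held the letters and are not shown. Those of Copg2, a maternally expressed gene, Grb10 and Commd1 had a peak in all 4 lists. Those of Igf2 and Zdbf2 with the letters had none. Capitals mark the 6 letters on either strand. The sequences run 5′ to 3′ on the gene's strand. They lie at chr7:6696383-6696682 (minus strand), chr6:58907077-58907376 (minus), chr6:30737800-30738099 (plus), chr2:152686898-152687197 (plus), chr2:157559828-157560127 (plus), chr10:13090582-13090881 (plus) and chr12:109540746-109541045 (plus), in the order printed.
Zim1: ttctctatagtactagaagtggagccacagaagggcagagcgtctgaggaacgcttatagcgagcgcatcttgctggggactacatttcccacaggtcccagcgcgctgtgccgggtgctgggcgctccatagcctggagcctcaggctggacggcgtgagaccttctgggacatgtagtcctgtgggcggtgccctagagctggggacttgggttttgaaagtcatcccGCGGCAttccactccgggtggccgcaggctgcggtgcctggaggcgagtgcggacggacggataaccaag
Nap1l5: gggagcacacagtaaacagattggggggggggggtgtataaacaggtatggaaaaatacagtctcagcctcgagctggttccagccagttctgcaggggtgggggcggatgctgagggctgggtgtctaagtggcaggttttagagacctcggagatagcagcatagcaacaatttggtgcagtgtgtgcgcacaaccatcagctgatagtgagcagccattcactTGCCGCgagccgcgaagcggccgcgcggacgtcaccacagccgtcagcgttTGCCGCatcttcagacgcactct
Mest: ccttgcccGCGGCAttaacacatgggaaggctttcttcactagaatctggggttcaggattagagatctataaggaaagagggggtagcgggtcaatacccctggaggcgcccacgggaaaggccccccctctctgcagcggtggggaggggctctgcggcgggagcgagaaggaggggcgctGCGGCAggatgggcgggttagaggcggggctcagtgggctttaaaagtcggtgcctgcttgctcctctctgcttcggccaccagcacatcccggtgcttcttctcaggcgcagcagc
Mcts2: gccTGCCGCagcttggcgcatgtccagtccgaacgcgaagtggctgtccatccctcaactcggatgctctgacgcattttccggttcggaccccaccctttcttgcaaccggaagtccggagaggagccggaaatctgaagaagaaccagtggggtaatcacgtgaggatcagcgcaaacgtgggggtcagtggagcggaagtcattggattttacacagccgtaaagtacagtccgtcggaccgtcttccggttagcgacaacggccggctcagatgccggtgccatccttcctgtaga
Nnat: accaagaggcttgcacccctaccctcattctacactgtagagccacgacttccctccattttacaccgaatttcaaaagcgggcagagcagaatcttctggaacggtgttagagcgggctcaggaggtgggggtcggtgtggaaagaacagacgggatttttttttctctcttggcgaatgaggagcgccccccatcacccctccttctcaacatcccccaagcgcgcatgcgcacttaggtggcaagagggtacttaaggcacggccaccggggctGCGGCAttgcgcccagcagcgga
Plagl1: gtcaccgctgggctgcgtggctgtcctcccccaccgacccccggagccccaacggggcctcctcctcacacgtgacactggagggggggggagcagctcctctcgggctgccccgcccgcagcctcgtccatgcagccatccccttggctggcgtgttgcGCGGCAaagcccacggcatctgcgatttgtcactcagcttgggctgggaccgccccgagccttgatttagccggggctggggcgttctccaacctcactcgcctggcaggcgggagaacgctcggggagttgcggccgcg
Meg3: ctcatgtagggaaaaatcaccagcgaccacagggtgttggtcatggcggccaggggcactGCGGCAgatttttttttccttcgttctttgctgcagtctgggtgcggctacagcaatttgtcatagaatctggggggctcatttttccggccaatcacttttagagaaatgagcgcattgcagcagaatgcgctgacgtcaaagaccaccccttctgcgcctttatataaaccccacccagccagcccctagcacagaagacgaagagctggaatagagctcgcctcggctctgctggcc

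The 6 letters were present in 13 of 38 promoters of the imprinted genes (34.2%), against 11.6% of all 32851 promoters in the table. The same promoters held a median of 17 CpG dinucleotides, against 7 over all promoters, and the part of base composition in the motif share was not tested. The letters ATGGCGG, bound by YY1, were found in 2 of the 38 promoters (5.26%), against 4.05% of all. A CTCF motif was found in 0 of the 38, against 0.0365% of all. All were searched on both strands. GCGGCA can share letters with ATGGCGG and with the CTCF motif, and a match describes letters only. Of the 38 promoters, 23 (of 18 genes) overlapped a peak in all 4 lists and 13 overlapped none. The 6 ZFP57 letters stood in 10 of those 23 and in 3 of those 13. The 23 held a median of 17 CpG dinucleotides and the 13 a median of 9. The same split over all promoters is not given, and the part of base composition in it was not tested. Promoters of a gene can overlap and were counted separately. Among those with the letters, this holds for Mest at chr6:30737800-30738099 and chr6:30737803-30738102.

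After filtering, 139318421 tags were left in deleted females, 144613215 in control females, 74674218 in deleted males and 91734730 in control males, and the lists held 104716, 130487, 88438 and 101635 peaks in that order. Because a longer list holds more weak peaks, each was cut to its 88159 strongest peaks by the authors' −log10 q, as many as the deleted male list had on chromosomes 1 to 19, X and Y. Rank 1 is the strongest peak of a list. Of 8 neural stem cell markers, 7, 7, 7 and 8 had a peak within 1 kb of a gene end in the deleted female, control female, deleted male and control male list. The counts in the same order were 3, 4, 3 and 3 of 5 neuron markers, 4, 5, 4 and 4 of 5 fibroblast markers, 1 in each list of 4 microglia and blood markers, and 2, 2, 2 and 1 of 4 endothelium markers. An open gene end is not expression. End peaks stood at markers of the other cell types as well, so these counts do not tell the cell types apart. Fibroblasts and endothelium are not shown to be absent.

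The number of peaks at the imprinted genes differed little between deleted and control cells. The equal-length lists held 162 peaks at the imprinted genes in deleted females, against 147 in control females, a log2 ratio of 0.14 with an exact 95% interval of −0.19 to 0.47. In males they held 151 peaks in the deleted list, against 145 in the control list, a log2 ratio of 0.06 (−0.28 to 0.40). Both intervals include 0, and they cover counting error only. With all deposited peaks the direction turned. There were 186 peaks in deleted females against 207 in control females (−0.15), and 151 in deleted males against 159 in control males (−0.07). The deposited lists as a whole differed by −0.32 in females and −0.20 in males on the same log2 scale, so the imprinted genes held a slightly larger share of the deleted list, 0.178% in deleted females against 0.159% in control females, and 0.171% in deleted males against 0.157% in control males. Among peaks with −log10 q of at least 10 this was not seen. The imprinted genes then held 0.180% of the peaks in deleted females against 0.184% in control females, and 0.180% in deleted males against 0.181% in control males.

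**Figure D1:**
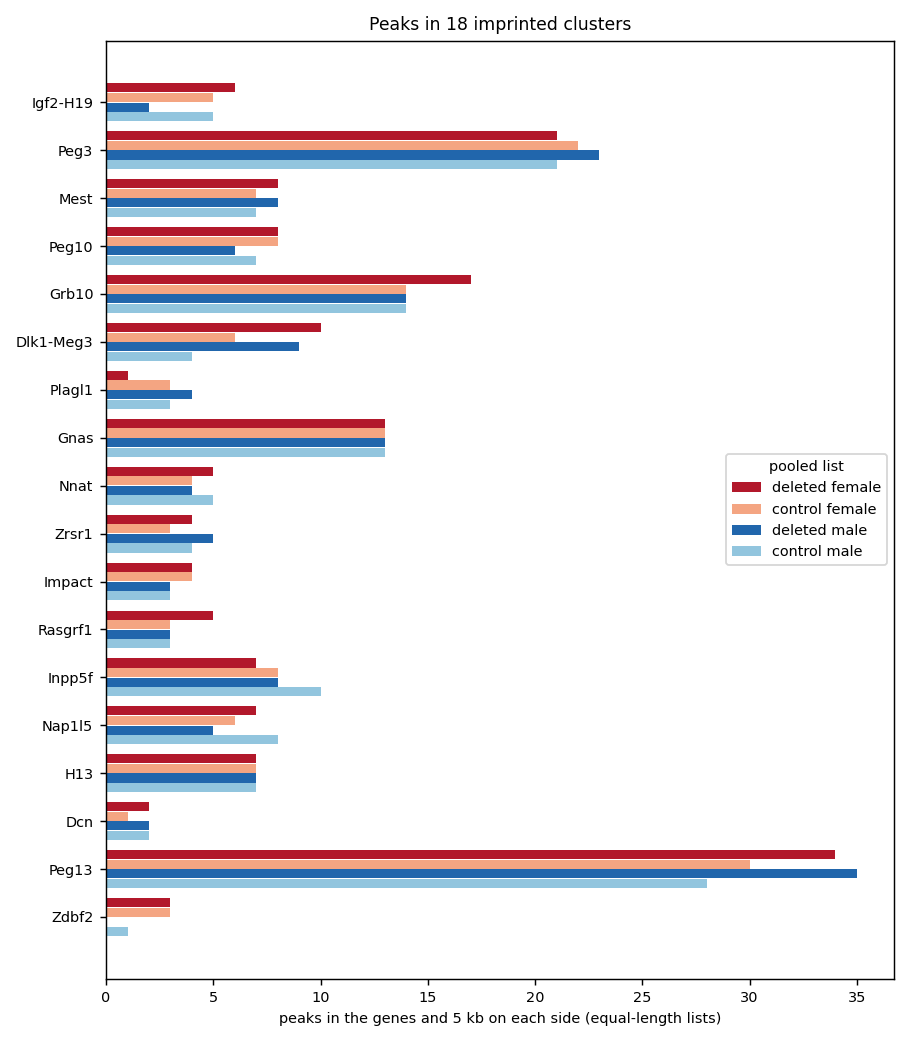
Number of peaks in the genes of each of 18 imprinted clusters and 5 kb on each side (bars, 1 per equal-length pooled list). Most clusters differ by a few peaks between deleted and control lists of a sex, and the Dlk1-Meg3 cluster has 10 and 9 peaks in the deleted lists against 6 and 4 in the control lists.

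By locus, 116 of 241 (48.1%) had a peak in all 4 deposited lists, where the background over all loci was 45.5%. A peak in the list of deleted females alone was found at 21 loci (background 6.63%), and one in control females alone at 29 (16.9%). The deleted male list alone held 5 loci (2.05%) and the control male list alone 8 (4.2%). Both deleted lists and neither control list held 2 loci (0.984%), and both control lists and neither deleted list held 8 (5.59%). Those 8 were 2 loci upstream of H19, 2 in Usp29, 2 in Inpp5f, 1 in Sgce and 1 in Trappc9. The remaining loci were in 2 lists in another combination or in 3 lists. Of loci within 1 kb of a gene end, 27 of 34 (79.4%) were in all 4 lists, against 65.3% of 27049 such loci over all genes. Away from the ends it was 89 of 207 (43.0%), against 42.8% of 81930 loci over all genes and their 5 kb flanks, so a larger share at gene ends was seen over all genes as well. The difference between the shares was not tested.

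Of the 35 genes, 25 had a peak within 1 kb of an end in all 4 lists. The share over all genes is not given, so this number cannot be called high or low. Mest, Meg3, Rian, Rtl1, Commd1, Impact and Zdbf2 had none at the outer gene ends in any list. Of these, Mest, Meg3, Commd1 and Zdbf2 had a peak within 1 kb of an inner annotated start in at least 2 lists. Distances were taken from the summit. At Impact a peak in all 4 lists (chr18:12955446-12956298) had its summit 1.10 kb from an end, just beyond the limit. Igf2 had an end peak in 3 lists, H19 in 2 and Ddc in 1. The strongest end peak, by mean rank, was at Zim1, a maternally expressed zinc finger gene (chr7:6696171-6696962). It ranked 162 in deleted females, 291 in control females, 226 in deleted males and 65 in control males, with the authors' fold enrichment at 10.9, 10.2, 13.1 and 13.8 in that order. Trappc9, a subunit of a vesicle trafficking complex, followed at chr15:73060490-73061443 with ranks of 748, 186, 116 and 399, again deleted and control females, then deleted and control males. The start of Inpp5f, a phosphoinositide phosphatase, ranked 1450, 1339, 1749 and 2195 in the same order. The start of Copg2, a coat protein of Golgi vesicles, ranked 1609, 1118, 2354 and 2583. At none of these 4 peaks did the deleted list stand on the same side of its control in both sexes.

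**Figure D2:**
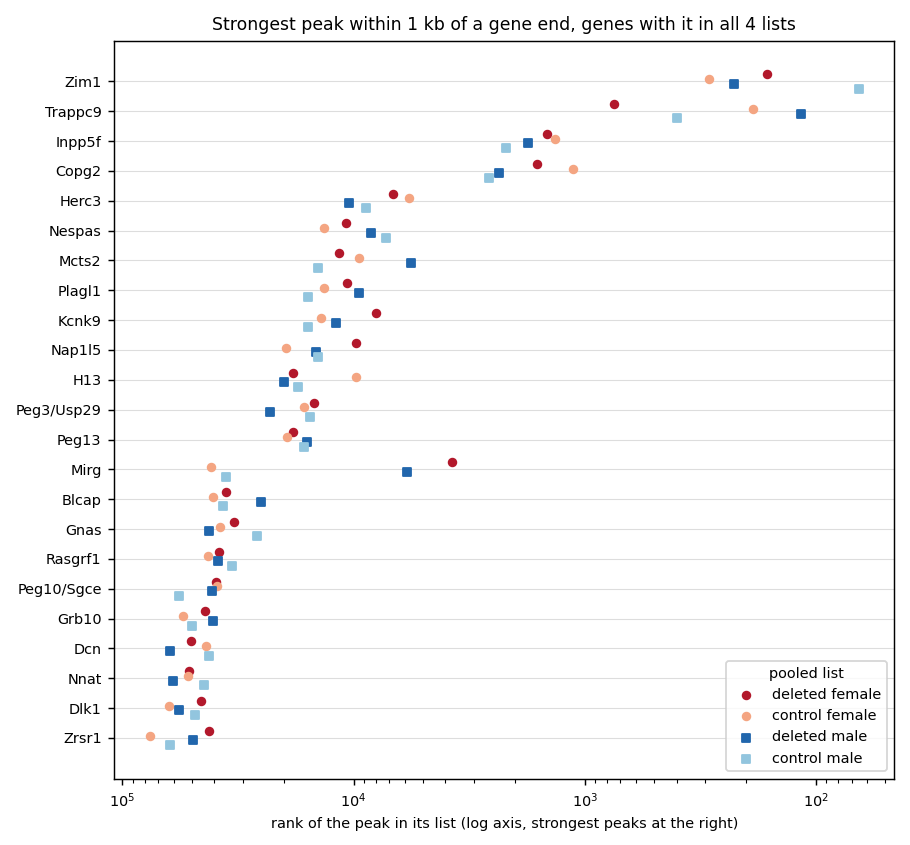
Rank (log axis, strongest at the right) of the strongest peak within 1 kb of either end of each gene that had one in all 4 lists, 1 point per pooled list. The peak beyond the Mirg 3′ end stands at ranks 3763 and 5861 in the deleted lists, and at 41367 and 35739 in the control lists.

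The Dlk1-Meg3 cluster on chromosome 12 had the largest ratio of peak numbers that pointed the same way in both sexes. Dlk1, a paternally expressed membrane protein of the Notch ligand family, and Rtl1, a retrotransposon-derived gene, share the cluster with the maternally expressed noncoding RNAs Meg3, Rian and Mirg, which host many microRNAs and small nucleolar RNAs. The equal-length lists held 10 peaks here in deleted females against 6 in control females, and 9 in deleted males against 4 in control males. The log2 ratios were 0.74 (−0.87 to 2.48) and 1.17 (−0.67 to 3.32), and both intervals include 0. In the deposited lists the counts were 13 in deleted females against 11 in control females, and 9 in deleted males against 6 in control males. The weakest −log10 q kept was 1.39 in deleted males against 4.52 in control males, and 4.27 in deleted females against 6.59 in control females. At chr12:109459522-109460183 in Dlk1 the deleted male peak, with a −log10 q of 3.52, was therefore counted. The control male peak there, with 4.23, was not. The part of the cut in the cluster's counts was not tested. The control region between Dlk1 and Meg3 lies beyond the 5 kb windows and was not counted.

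Among the 112 loci present in all 4 equal-length lists, the largest mean rank difference with the same direction in both sexes was at a peak 534 bp beyond the 3′ end of Mirg (chr12:109749711-109750297). Fold enrichment there was 7.53 in deleted females, 4.44 in control females, 8.90 in deleted males and 5.32 in control males. By rank it was number 3763 in deleted females against 41367 in control females, and 5861 in deleted males against 35739 in control males. The peak was stronger in both deleted lists than in either control list. Of the 63349 loci present in all 4 equal-length lists, 98 (0.155%) had rank differences as large in both sexes. Because the Mirg peak was picked as the largest of 112 by these same differences, that share is not a test. The nearest microRNA hairpin in the RefSeq table, Mir3072, lay 2.03 kb away. With ranking by pileup or by fold enrichment the difference stayed between 33309.5 and 42057.5 ranks in females and between 25961.5 and 32583.5 in males.

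At Meg3 the peaks did not move as 1 block. No peak overlapped the annotated 5′ start shown above. A peak 2.05 kb downstream of that start (chr12:109542893-109543203) was enriched 4.16-fold in deleted females, 5.29 in control females, 4.18 in deleted males and 4.87 in control males, with ranks of 30716, 31737, 46021 and 41546. Enrichment was lower in the deleted list of both sexes, and rank was lower in males only. A weaker peak 0.66 kb downstream of an inner Meg3 start (chr12:109545934-109546259) was in both deleted lists, with fold enrichments of 2.85 in females and 2.91 in males, and in neither control list. The only other locus with that pattern lay in Rian (chr12:109612935-109613107), with 2.14 in deleted females and 3.07 in deleted males.

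Further into the maternally expressed RNAs, a peak in Rian (chr12:109617150-109617487) had fold enrichments of 4.65 in deleted females, 3.17 in control females and 3.72 in deleted males, and was missing in control males. A peak inside the annotated Rtl1 gene (chr12:109595685-109596158) had 4.19, 3.47 and 4.60 in the same 3 lists and was also missing in control males. Other loci in Rtl1 and Rian went either way. At chr12:109594861-109595215 deleted females had 2.61, control females 2.45 and control males 2.25, and deleted males had no peak. In control females alone were chr12:109595221-109595383 and chr12:109608542-109608733. In deleted females alone were chr12:109590716-109590876 and chr12:109609147-109609313. By enrichment, the 3 peaks at Dlk1 were lower in deleted than in control males. By rank the peak at chr12:109459522-109460183 went the other way, at 82170 in deleted males against 89478 in control males. The peak 0.44 kb downstream of the Dlk1 start (chr12:109453046-109453745) had 3.22 in deleted females, 3.19 in control females, 3.30 in deleted males and 3.95 in control males.

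**Figure D3:**
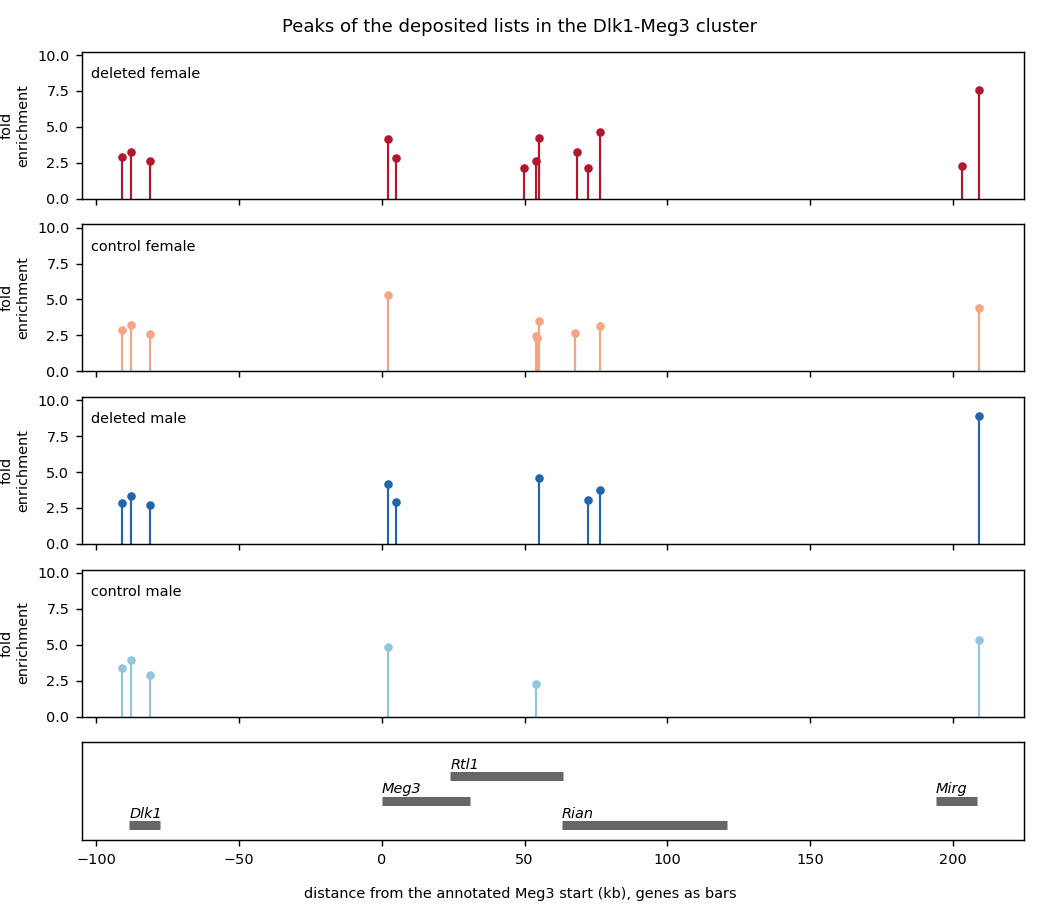
Peaks of the 4 deposited lists in the Dlk1-Meg3 cluster, placed by distance from the annotated Meg3 start (kb), with the authors' fold enrichment as height and genes as bars below. The rightmost peak, beyond Mirg, is at 7.53 and 8.90 in the deleted lists and at 4.44 and 5.32 in the control lists, while the 3 leftmost peaks at Dlk1 are in all 4 lists.

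The Igf2-H19 cluster on chromosome 7 held weak peaks. Igf2 is a paternally expressed fetal growth factor, and the control region upstream of the noncoding RNA H19 binds CTCF on the maternal copy and is methylated on the paternal one. The equal-length lists held 6 peaks in deleted females against 5 in control females, and 2 in deleted males against 5 in control males. With all deposited peaks the female direction turned, at 8 in deleted females against 13 in control females, and the male counts were the same. Only 1 of 13 loci had a peak in all 4 deposited lists, at an inner start of Igf2 (chr7:142659065-142659669). Fold enrichment was 3.20 in deleted females, 3.24 in control females, 3.30 in deleted males and 3.47 in control males, a narrow range.

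Upstream of H19, where the control region lies, 4 loci stood 2 to 4 kb from the gene. A peak was present at 2 of them in deleted females, at 4 in control females, at 0 in deleted males and at 3 in control males. The loci 2.19 and 3.21 kb upstream (chr7:142580226-142580420 and chr7:142581196-142581478) had peaks in neither deleted list, whereas control females showed fold enrichments of 3.00 and 2.98 there and control males showed 2.89 and 2.73. At 2.61 kb the values were 2.54 in deleted females, 2.90 in control females and 3.05 in control males, and deleted males had no peak. At 3.65 kb they were 2.51 in deleted females and 2.46 in control females, with no peak in either male list. A further locus 0.15 kb upstream had 2.68 in deleted females and 2.15 in control females. All these peaks ranked 61275 or weaker in their lists, and the deleted male list is the shallowest of the 4, at 74674218 tags. The part of depth in the missing peaks was not tested.

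**Figure D4:**
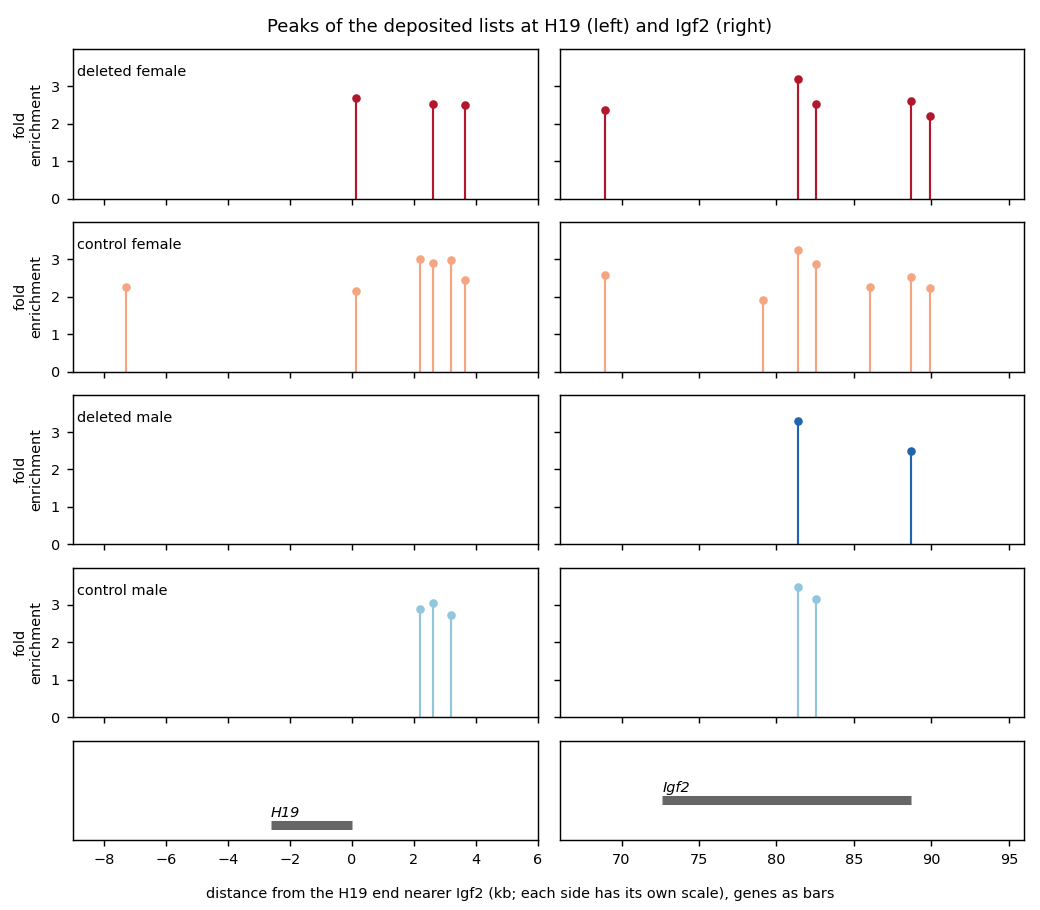
Peaks of the 4 deposited lists around H19 (left) and Igf2 (right), placed by distance from the H19 end nearer Igf2 (kb), with the authors' fold enrichment as height and genes as bars below. Between 2 and 4 kb upstream of H19 there are 2 peaks in deleted females, 4 in control females, none in deleted males and 3 in control males.

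The Peg3 cluster on chromosome 7 held 21 peaks in deleted females against 22 in control females, and 23 in deleted males against 21 in control males. The shared start of Peg3, a zinc finger protein, and Usp29, a ubiquitin protease family gene, lies in a germline imprinting control region. Its peak (chr7:6730097-6730636) was enriched 3.90-fold in deleted females, 3.98 in control females, 3.72 in deleted males and 4.44 in control males. Beside it, peaks inside Peg3 stood higher in both deleted lists. The one at chr7:6727299-6729046 ranked 13462 in deleted females against 19380 in control females, and 15290 in deleted males against 21048 in control males. The one at chr7:6729315-6729906 ranked 32731 in deleted females against 50274 in control females, and 38773 in deleted males against 44283 in control males. Most other peaks lay in the long Usp29 gene, where 1 peak was called lost in females (chr7:6869651-6869889). It was absent from both deleted lists and had 4.52 in control females and 3.95 in control males. A second Usp29 peak absent from both deleted lists (chr7:6829264-6829433) was weaker, with 3.49 in control females and 2.87 in control males. Lower in both deleted lists, but present, was the Usp29 peak at chr7:6753424-6753775, with 3.20 in deleted females, 5.24 in control females, 4.86 in deleted males and 6.46 in control males. A further Usp29 peak (chr7:6823722-6824144) had 3.70, 5.08, 4.01 and 4.79 in that order. The strongest inner Usp29 peak (chr7:6810599-6811030) ranked between 11593 and 14653 in the 4 lists, so the peaks within the gene did not move together.

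The Peg13 cluster on chromosome 15 held the most peaks, 34 in deleted females against 30 in control females and 35 in deleted males against 28 in control males, and 60 loci in all. With all deposited peaks this order was not seen, at 40 in deleted females against 45 in control females and 35 in each male list. Nearly all lay in Trappc9, whose intron holds Peg13, a paternally expressed noncoding RNA, and Kcnk9, a maternally expressed potassium channel gene, lies beside it. The peak at an end of Peg13 (chr15:72809846-72810865) had fold enrichments of 4.65 in deleted females, 4.98 in control females, 6.16 in deleted males and 6.06 in control males. The peak beyond an end of Kcnk9 (chr15:72549237-72549781) had 6.32, 6.40, 7.35 and 7.15 in that order. Within Trappc9 there were peaks of either direction. The peaks at chr15:72651743-72652393 and chr15:72773605-72774009 stood higher in both deleted lists, with ranks of 39098 and 61058 in deleted females against 65586 and 78940 in control females, and 54518 and 63461 in deleted males against 78091 and 86118 in control males. The peak at chr15:72946016-72946406 stood lower, with ranks of 80172 in deleted females against 53661 in control females, and 78771 in deleted males against 59455 in control males. A Trappc9 peak called lost in males (chr15:72927332-72927838) had 3.19 in deleted females, 4.01 in control females and 4.86 in control males, and was missing in deleted males.

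The Grb10 cluster on chromosome 11 joins Grb10, an adaptor of growth factor receptors, and Ddc, which makes dopamine and serotonin from their precursors. It held 17 peaks in deleted females against 14 in control females, and 14 in each male list. With all deposited peaks the female direction turned, at 19 in deleted females against 25 in control females. The outer Grb10 start (chr11:12036469-12038006) had fold enrichments of 3.79 in deleted females, 3.79 in control females, 4.60 in deleted males and 4.24 in control males. The strongest peak of the cluster, inside Grb10 (chr11:12025537-12026931), had 6.60, 6.15, 7.81 and 8.09 in that order. A peak inside Grb10 called gained in males (chr11:11974968-11975204) had 3.53 in deleted females, 3.57 in control females and 4.72 in deleted males, and was missing in control males, so the female lists did not share the difference. At the outer Ddc start the only peak was in control females, at a fold enrichment of 2.70. An inner Ddc start had a peak in all 4 lists (chr11:11890218-11890691). Fold enrichment there was 3.29 in deleted females, 4.44 in control females, 4.86 in deleted males and 4.43 in control males.

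In the Mest cluster on chromosome 6, 8 peaks in each deleted list stood against 7 in each control list. The female direction turned with all deposited peaks, at 8 in deleted females against 9 in control females. The peak at the inner Mest start (chr6:30737865-30738399) ranked 25330 in deleted females, 29247 in control females, 25307 in deleted males and 33322 in control males. Mest encodes a hydrolase-fold protein and overlaps the end of Copg2, whose start peak (chr6:30895973-30897200) had fold enrichments of 9.99 in deleted females, 10.6 in control females, 12.1 in deleted males and 11.9 in control males. Other clusters are a retrogene inside a host gene. Nap1l5, a retrogene of the nucleosome assembly family inside Herc3, had a peak at its start (chr6:58906676-58907311) with fold enrichments of 6.59 in deleted females, 5.44 in control females, 6.83 in deleted males and 6.77 in control males. The strongest peak of that cluster lay in Herc3 (chr6:58903155-58903726) and had 8.17, 8.07, 8.52 and 9.68 in that order, and the Herc3 end (chr6:58831185-58832060) had 7.16, 7.50, 7.80 and 7.60. Peak numbers in the Nap1l5 cluster were 7 in deleted females against 6 in control females, and 5 in deleted males against 8 in control males. Mcts2, a retrogene in an intron of H13, the signal peptide peptidase gene, had 5.56, 6.40, 8.71 and 6.78 at its start (chr2:152686734-152687271) in that order, and the H13 start (chr2:152669241-152670436) had 5.03, 6.48, 5.68 and 6.51. The starts of Mest, Nap1l5 and Mcts2 had a peak in all 4 lists, and Mcts2 was lower in deleted females and higher in deleted males than in their controls.

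Zrsr1, a retrogene related to a splicing factor, lies in an intron of Commd1. The locus chr11:22971839-22973112 covers the Zrsr1 start and an inner Commd1 start and joins up to 3 peaks of a list. On the Zrsr1 promoter the strongest peak ranked 64312 in deleted females against 76097 in control females, and 54639 in deleted males against 62181 in control males. On the promoter of the inner Commd1 start it ranked 42117 in deleted females against 76097 in control females, and 49560 in deleted males against 67395 in control males. Both promoters thus ranked higher in the deleted list of either sex. The host's own start (chr11:22981672-22982615) did not share this, with ranks of 12552 in deleted females, 7291 in control females, 7579 in deleted males and 12005 in control males. Nnat, a small membrane protein of neural tissue inside Blcap, had fold enrichments of 3.04, 3.27, 3.12 and 4.03 at its start (chr2:157559956-157560420), in deleted and control females and then deleted and control males. The Blcap start (chr2:157565943-157567028) had 3.52, 3.67, 5.16 and 4.51 in that order. The Zrsr1 cluster held 4 peaks in deleted females against 3 in control females and 5 in deleted males against 4 in control males, and the Nnat cluster held 5 in deleted females against 4 in control females and 4 in deleted males against 5 in control males.

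The Peg10 cluster on chromosome 6 holds Peg10, a retrotransposon-derived gene, and Sgce, epsilon-sarcoglycan, which share a start region. The peak at the Sgce end beside Peg10 (chr6:4746665-4747599) had fold enrichments of 3.71 in deleted females, 3.96 in control females, 3.92 in deleted males and 3.49 in control males. The cluster's strongest peak, 1.88 kb inside Peg10 (chr6:4748566-4749517), had 7.20, 6.34, 7.53 and 7.65 in that order. A weak neighbour (chr6:4748077-4748337) stood lower in both deleted lists, at rank 79856 in deleted females against 57295 in control females and 71443 in deleted males against 62261 in control males. The 3 neighbouring peaks did not move together. The equal-length lists held 8 peaks in each female list, and 6 in deleted males against 7 in control males.

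The Gnas cluster on chromosome 2 held 13 peaks in each of the 4 equal-length lists. Gnas encodes the stimulatory G protein alpha subunit from several starts, and Nespas is a paternally expressed antisense RNA that spans the outermost one. The peak at the Nespas end inside Gnas (chr2:174295154-174295874) had fold enrichments of 4.79 in deleted females, 4.72 in control females, 6.29 in deleted males and 6.46 in control males. The outermost Gnas start (chr2:174284062-174284446) had 3.87, 4.05, 4.14 and 5.57 in that order. A weak peak 0.68 kb inside it (chr2:174284624-174285477) ranked higher in both deleted lists, 53107 in deleted females against 82842 in control females, and 79003 in deleted males against 86262 in control males. In males the outermost start and this neighbour went opposite ways, since the start ranked 42023 in the deleted against 26052 in the control list.

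The other clusters had few peaks. Plagl1, a paternally expressed zinc finger transcription factor, had a start peak (chr10:13090317-13091259) with fold enrichments of 7.31 in deleted females, 7.50 in control females, 9.25 in deleted males and 8.34 in control males. The start of Rasgrf1, a Ras exchange factor (chr9:89909504-89910084), had 3.49, 3.56, 4.15 and 4.54 in that order. Impact, which restrains the kinase GCN2, had its strongest peak inside the gene at 5.90, 6.11, 6.91 and 6.60. These 3 peaks differed by less than 1 unit of fold enrichment between deleted and control lists of a sex. A second Rasgrf1 peak, 1.28 kb downstream of the start (chr9:89910930-89911207), had 2.72 in deleted females, 2.61 in control females, 2.74 in deleted males and 4.08 in control males. Its ranks were 61112 in deleted females against 73611 in control females, and 75066 in deleted males against 39588 in control males. The sexes thus went opposite ways, and in males the difference of −35475.5 ranks was larger than at any other of the 112 loci in all 4 equal-length lists. In peak number, Plagl1 had 1 in deleted females against 3 in control females and 4 in deleted males against 3 in control males. Rasgrf1 had 5 in deleted females and 3 in each other list, and Impact had 4 in each female and 3 in each male list.

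Dcn encodes decorin, a matrix proteoglycan typical of fibroblasts. The peak at its end (chr10:97479383-97479804) was lower in both deleted lists, at 3.61 in deleted females against 4.52 in control females and 3.72 in deleted males against 5.02 in control males. Of the 5 fibroblast markers, 4 had an end peak in deleted females against 5 in control females, while both male lists had 4. In and around these 5 genes the equal-length lists held 12 peaks in deleted females against 13 in control females, and 10 in deleted males against 15 in control males. The part of fibroblast-like cells in the Dcn difference was not tested. Zdbf2, a paternally expressed zinc finger gene, had no locus in all 4 lists. Its inner start (chr1:63273016-63273902) had 3.37 in deleted females, 2.62 in control females and 2.87 in control males, with no peak in deleted males. The equal-length counts were 3 in each female list, 0 in deleted males and 1 in control males. In the Inpp5f cluster there were 7 peaks in deleted females against 8 in control females, and 8 in deleted males against 10 in control males. The H13 cluster held 7 in every list.

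Clear gains or losses were rare. A gained peak ranked within 44079 in the deleted list and overlapped no peak of the equal-length control list, and a lost peak met the reverse rule. In females 0 of 83 strong peaks of the deleted list were gained, against 1.13% over all peaks, and 1 of 79 strong control peaks was lost, against 0.44%. In males 2 of 82 were gained, against 0.817%, and 1 of 78 was lost, against 1.1%. These are the peaks in Usp29, Grb10, Rtl1 and Trappc9 described above, and no locus was called in both sexes. With 0 to 2 peaks called, the counts cannot be set apart from the background.

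Rank differences were compared over the 112 loci of imprinted genes with a peak in all 4 equal-length lists. At least 10000 ranks higher in deleted lists of both sexes were 5 of them (4.46%), against 4.48% of all 63349 loci, and at least 10000 ranks lower were 3 (2.68%), against 4.44%. The median rank difference, control rank minus deleted rank, was 1861.25 in females and 447.5 in males, against −350 and −2 over all loci. Higher in the deleted list were 68 of the 112 loci in females (60.7%), against 47.1% of all loci. In males they were 60 (53.6%), near the 50.0% of all loci. The 2 sexes shared the direction only loosely. Spearman's rho between female and male differences was 0.23 over the 112 loci and 0.18 over all loci, which describes the lists, since loci of a list share depth and background.

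**Figure D5:**
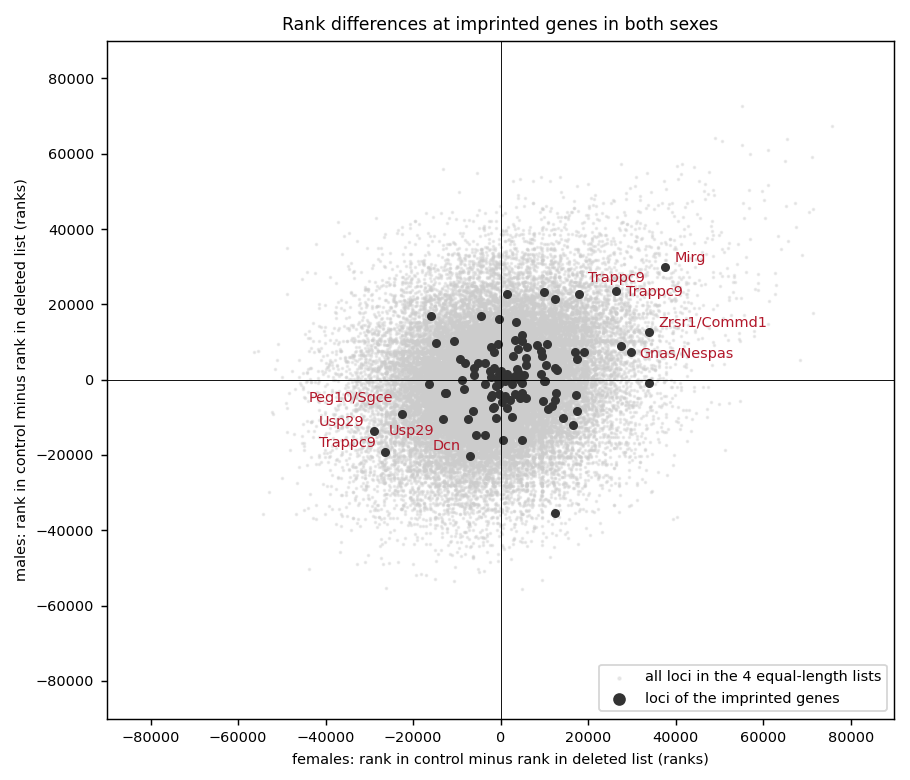
Difference in rank (control minus deleted; positive means stronger in the deleted list) in females (x axis) and males (y axis), with loci of imprinted genes in black over all loci in grey. The Mirg peak lies farthest to the upper right of the named loci, at 37603.5 ranks in females and 29877.5 in males.

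The Snrpn cluster gave the largest difference among the gene groups set beside these clusters. It held 53 peaks in deleted females against 33 in control females (log2 ratio 0.68, 0.03 to 1.36) and 49 in deleted males against 32 in control males (0.61, −0.06 to 1.30), with 4 of 14 strong peaks gained in females, against 1.13% over all peaks, and 2 of 14 gained in males, against 0.817%. With all deposited peaks it held 62 in deleted females against 57 in control females (0.12), and 49 in deleted males against 44 in control males (0.16). The Igf2r cluster held 19 peaks in each female list, and 23 in deleted males against 16 in control males. The Kcnq1 cluster held 43 in deleted females, 42 in control females and 42 in each male list. The intervals of the 35 genes, 0.14 in females and 0.06 in males as above, overlap those of all these clusters, and no difference between them was tested. Of 15 genes that set, read or keep imprints, such as Zfp57, Trim28 and Dnmt1, each list had an end peak at 9. They held 46 peaks in each female list, and 52 in deleted males against 49 in control males, with none gained or lost. Imprinted or neighbouring genes outside the 35, of which 22 of 23 were found in the gene table, held 86 peaks in deleted females against 84 in control females, and 95 in deleted males against 86 in control males. Of their strong peaks, 1 of 52 was gained in females, against 1.13%, and 1 of 53 was lost in males, against 1.1%.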

How the data were processed

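ATAC-seq was measured in 10 libraries of neural stem cells, and the authors deposited 1 peak list per group. Per the submitters' processing notes, the build was mm10 and the tools included Bowtie2 2.2.5, Trim Galore 0.4.0, bcl2fastq, Picard, SAMtools, edgeR and MACS2. Per the file headers, the caller was MACS 2.1.0.20140616, run without a control on the pooled alignment of each group, with reads shifted by 75 bp and extended to 150 bp and a q limit of 0.05. The deposited pileup is a signal height at the summit. Fold enrichment is the authors' ratio over local background, and −log10 q is the authors' value for each peak. They served to order and filter peaks inside their own list. Fold enrichment is also set side by side between lists, without adjustment for their unlike depth.

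Peaks off chromosomes 1 to 19, X and Y were dropped, the rest were ranked by −log10 q, and each list was cut to 88159 peaks, with ties broken by position (up to 2395 peaks tied at that point). Where a locus joined several peaks of a list, the values of the strongest are given. Genes came from the RefSeq table of GRCm38.p6, the sequence build of mm10, in which all 35 genes were found (Nespas as Gnasas1). Depth was 139318421 tags in deleted females, 144613215 in control females, 74674218 in deleted males and 91734730 in control males. Exact binomial intervals (95%) go with ratios of peak counts, and there are no p-values. Values are given for the strongest end peak of genes, for gained and lost peaks and for the strongest peak of clusters. They are also given for the 5 loci per direction with the largest mean rank difference in both sexes. Mest, Meg3, Rian, Rtl1, Dlk1, H19, Peg3, Usp29, Ddc, Impact, Rasgrf1 and Zdbf2 loci beyond these were chosen after their values were seen. The 35 genes and the lists were chosen with earlier results of these data known. The step of 10000 ranks was also chosen after seeing the data. Alternatives were other list lengths, ranking values, flanks, overlaps and margins. Tables were made with Python 3.11.15, numpy 2.4.6, pandas 2.3.3 and scipy 1.17.1, and figures with matplotlib 3.10.9.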

Additional observations from a re-analysis of the deposited data

Results flagged for a closer look

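The number of peaks in the Igf2-H19 cluster, deleted minus control in the equal-length lists, was 1 in females and −3 in males, so the sexes went opposite ways in peak number. The Nap1l5 cluster, with its host Herc3, showed the same, with 1 in females and −3 in males. Smaller opposite differences were −1 in females and 2 in males at Peg3, −2 in females and 1 in males at Plagl1, and 1 in females and −1 in males at Nnat. Each group has 1 pooled list, so the difference between the sexes was not tested. With all deposited peaks Igf2-H19 and Nap1l5 no longer differed in this way, with 8 peaks in deleted females against 13 in control females at Igf2-H19, and 7 in each female list at Nap1l5.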

How the results depend on the processing

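The log2 ratio of peak number at the imprinted genes changed sign, from the values of 0.14 in females and 0.06 in males, in 2 settings. It was −0.15 and −0.07 with all deposited peaks. It was −0.38 and −0.28 for peaks with −log10 q of at least 10, where all peaks gave −0.35 and −0.27. Under the other alternatives it stayed above 0, and without the Dlk1-Meg3 cluster, left out after seeing the data, it was 0.11 and 0.01. Gained peaks in females numbered 0, with 1 at a 20 kb flank and 27 with no margin, and lost peaks in females numbered 1, with 0 at −log10 q of at least 10 and 13 with no margin. Gained peaks in males numbered 2, with 0 at that q and 28 with no margin. Lost peaks in males numbered 1, with 0 at that q, 4 when ranked by pileup, 2 when ranked by fold enrichment and 24 with no margin. The cause of these changes was not tested. Of 84 alternative values for the main results, 73 were counted as unchanged. The limits were the counting interval for ratios, 1.5 times the reported value for gained and lost peaks, and 2395 ranks for median rank differences. That last limit is wider than the medians, which were 1861.25 in females and 447.5 in males. By pileup the female median was 1002.75, and by fold enrichment the male median was 981. Of the 73 values, 7 had the other sign, as ratios near 0 did with all deposited peaks. With those peaks the Snrpn cluster gave 0.12 and the Igf2r cluster −0.56 in females, against 0.68 and 0 as reported, and the Igf2-H19 cluster gave −0.70 in females, against 0.26. Among single loci, 4 of 40 values moved, at Gnas (males, 3752 by pileup and 11180 by fold enrichment) and Peg10 (females, −13900 by fold enrichment, and males, −1276 by pileup), with no change of direction. No paired analysis was possible because each group has 1 pooled list whose columns carry no replicate number, and for the same reason no replicate could be left out. Depth was lowest in deleted males, at 74674218 tags, and their equal-length list reaches down to a −log10 q of 1.39, against 4.27 in deleted females, 6.59 in control females and 4.52 in control males. The part of depth was not tested.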
